A study of Mus musculus with 2 samples.

Results

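The Slit ligands Slit1, Slit2 and Slit3, the receptors Robo1, Robo2 and Robo3, and the cytoplasmic partners Srgap1, Srgap2 and Srgap3 were followed through single-nucleus RNA profiles of the embryonic mouse cortex. They were chosen by gene symbol, and all 9 were found among the 33938 genes of the files. Nuclei came from neocortices dissected out of embryonic brains, and there was 1 library with the genotype label MEN1-NCKO and 1 with the label MEN1-F/F, called NCKO and F/F here. The labels carry Men1, the gene of the chromatin scaffold protein menin. The sources used here do not give the meaning of NCKO, the driver line, the part of Men1 that was targeted, the embryonic age, the number of embryos per library or any further alleles. Each difference is therefore a difference between these 2 libraries, no test was run, and intervals cover counting error only.

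Slits are large secreted proteins that bind the immunoglobulin domains of Robo receptors on growing axons and migrating neurons and mostly repel them. Bound Robos act through cytoplasmic proteins, among them the srGAPs, which bend membranes through their F-BAR domains. In the developing forebrain this signalling is known for steering callosal axons through the corpus callosum, for keeping corticofugal and thalamic axons off the midline, for guiding interneurons past the striatum and for regulating the division of progenitors. Robo1 and Robo2 are the main forebrain receptors, while mammalian Robo3 binds Slits weakly and is known for midline crossing in the hindbrain and spinal cord.

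Some genes of this pathway, though not all, hold a microRNA or letters that match it, and its sequences are shown first. Slit2 and Slit3 each hold a miR-218 hairpin in an intron on their own strand, Mir218-1 with its 5p arm at chr5:48223966-48223986 and Mir218-2 with its 5p arm at chr11:35616840-35616860, both on the plus strand (RefSeq, GRCm38.p6). The 5p arm is the same from both loci, while the 3p arms differ in their seeds. The seed, bases 2 to 8, is in capitals.
mmu-miR-218-5p: uUGUGCUUgaucuaaccaugu
mmu-miR-218-1-3p: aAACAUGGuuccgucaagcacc
mmu-miR-218-2-3p: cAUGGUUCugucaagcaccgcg

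The letters AAGCACA, complementary to the 5p seed, were searched for in the 3′ UTRs of GENCODE vM21 on the transcript strand. They occurred in 2895 of 20852 genes with a 3′ UTR, or 13.9%, and in 6 of the 9 genes studied here. Robo1 and Robo3 had 1 match each, Robo2 had 2, Slit2 had 2, Srgap2 and Srgap3 had 1 each, and Slit1, Slit3 and Srgap1 had 0. Longer 3′ UTRs have more room for a match, and the share of 13.9% was not matched for length. The searched 3′ UTR was 343 bases in Robo3, 1733 in Robo1 and 3492 to 4817 in the other matching genes. It was 365 bases in Slit3, 1212 in Slit1 and 4407 in Srgap1. The 3 matches of the main receptors follow with the match in capitals, Robo1 on the plus strand at chr16:73045334-73045355, and Robo2 on the minus strand at chr16:73895358-73895379 and chr16:73893032-73893053 (GRCm38). MicroRNAs were not measured in these libraries, and a match of letters is not a measured site.
Robo1 site: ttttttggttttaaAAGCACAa
Robo2 site A: ttttatttggtgatAAGCACAa
Robo2 site B: gtcacggcagacccAAGCACAg

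The NCKO library held 10750 barcodes with 50115162 UMIs and the F/F library 6477 barcodes with 30116311 UMIs. After filters and removal of likely doublets, 9807 NCKO and 6130 F/F nuclei were left, with a median of 3581 and 3663.5 UMIs. The 9 genes gave 229357 UMIs in NCKO and 162916 in F/F, which was 0.555% and 0.607% of all UMIs. Nuclei of both libraries were clustered together without the 9 genes and their pathway partners, and 35 of 53 clusters were named after marker genes, giving 18 classes whose names carry "-like". By these markers the tissue was not neocortex alone: 10.3% of NCKO and 11.1% of F/F nuclei were striatal or LGE-derived neuron-like, and 2.14% and 2.01% were hippocampal neuron-like. Unnamed clusters held 19.5% of NCKO and 14.3% of F/F nuclei. On the CPM scale, which divides by all UMIs counted, Men1 itself was at 13.5 CPM in NCKO and 10.4 CPM in F/F over all kept nuclei, a ratio of 1.29 (1.119 to 1.499). Of the classes with at least 50 Men1 UMIs, upper-layer neuron-like nuclei had a ratio of 1.52 (1.13 to 2.05) and striatal or LGE-derived 1.67 (1.04 to 2.75). The others had intervals on both sides of equal levels: layer 6 1.47 (0.904 to 2.46), MGE-derived 1.32 (0.743 to 2.425) and layer 5 0.979 (0.536 to 1.86). Radial glia-like nuclei, under that minimum with 17 UMIs in NCKO and 23 in F/F, had a ratio of 0.460 (0.231 to 0.8997). Counts from the 3′ end say nothing about a deletion elsewhere in the gene, so the libraries are named by their labels.

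Levels are given as CPM of a class in a library, with the exact Poisson 95% interval in parentheses where it is needed. Levels of different genes are not compared, since a long gene with much intronic RNA gives more UMIs in nuclei. Endothelial cell-like nuclei of NCKO (49) had 521 CPM of Robo1 and 353 CPM of Robo2. Microglia-like nuclei, 43 in NCKO and 22 in F/F with median depths of 2180 and 2717.5 UMIs, served as a reference class for neuronal guidance genes. Their UMIs of these genes may come from free RNA, from doublets or from the cells themselves, which was not tested. The median doublet score of the microglia-like cluster was 0.112, beside 0.014 in upper-layer neuron-like cluster 0. In microglia-like nuclei Slit1 was at 34.3 CPM in NCKO and 58.5 CPM in F/F, Slit2 at 51.5 and 14.6, Slit3 at 17.2 and 14.6, Robo1 at 755 and 1010, and Robo2 at 953 and 995 CPM. These microglia-like levels rest on few UMIs for the Slits, between 1 and 6 per gene and library.

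Among the 12 named classes that held at least 50 nuclei in both libraries, a different class was highest for each Slit. Unnamed clusters stand outside this order although they held much of the ligand RNA: 33.1% of Slit1 UMIs in NCKO and 26.9% in F/F, 47.4% and 34.2% of Slit2, and 56.3% and 42.3% of Slit3, beside 25.2% and 19.6% of all UMIs. Slit1, on chromosome 19 from 41600257 to 41743665 (minus strand, ENSMUSG00000025020), was highest of the 12 in CGE-derived interneuron-like nuclei, GABAergic cells from the caudal ganglionic eminence. Its level there was 377 CPM (340 to 417) in NCKO and 360 CPM (312 to 412) in F/F. Layer 6 neuron-like nuclei, the corticothalamic neurons, came next in both libraries with 126 CPM (116 to 137) in NCKO and 156 CPM (142 to 172) in F/F. In NCKO the layer 6 interval overlapped that of intermediate progenitor-like nuclei at 103 CPM (69.3 to 149), while in F/F none of the 12 classes but the CGE-derived one reached it. Layer 6 held 19.05% of Slit1 UMIs in NCKO and 21.9% in F/F, and the CGE-derived class 13.2% and 10.2%. Outside the 12, ganglionic eminence progenitor-like nuclei had 131 CPM in NCKO and 192 CPM in F/F. Unnamed clusters 42 (256 and 310 CPM) and 10 (158 and 173 CPM) were also above layer 6. Slit1 was near its lowest in migrating excitatory neuron-like nuclei, at 10.0 CPM in NCKO and 24.2 CPM in F/F, and in radial glia-like nuclei, at 20.8 and 22.0 CPM, which is no higher than in microglia-like nuclei. With every nucleus thinned to 1000 UMIs, 34.4% of NCKO and 34.3% of F/F CGE-derived nuclei held a Slit1 UMI (60.8% and 55.6% unthinned). The thinned share in microglia-like nuclei was 4.65% in NCKO and 0 of 22 nuclei in F/F.

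Slit2, on chromosome 5 from 47983138 to 48307733 (plus strand, ENSMUSG00000031558), was highest of the 12 in migrating excitatory neuron-like nuclei, newborn neurons that have not yet settled in a layer. There it stood at 557 CPM (517 to 599) in NCKO and 639 CPM (592 to 688) in F/F, apart from every other class of the 12. Hippocampal neuron-like nuclei had 310 CPM (276 to 346) in NCKO and 258 CPM (220 to 300) in F/F. Radial glia-like nuclei, the stem cells of the ventricular zone, had 165 CPM (147 to 184) in NCKO and 273 CPM (244 to 306) in F/F, so their place in the order differed: in NCKO below the hippocampal and intermediate progenitor-like nuclei (257 CPM), and in F/F next to the migrating nuclei with an interval that overlapped the hippocampal one. Layer 6 neuron-like nuclei were lowest of the 12, at 17.0 CPM in NCKO and 18.2 CPM in F/F, 32.7 and 35.1 times below the migrating nuclei. Within the migrating class, Slit2 was most uneven in cluster 39, led by Tfap2d, at 569 CPM in its 19 NCKO nuclei and 2016 CPM in its 45 F/F nuclei. The migrating class held 11.5% of Slit2 UMIs in NCKO and 18.6% in F/F, and several unnamed clusters had higher levels. Cluster 34 (led by Tafa1 and Trps1) was at 1046 CPM in NCKO and 1243 CPM in F/F, and cluster 32 (Trps1 and Grik1) at 827 and 745 CPM. Cluster 50 (Fst and Nr4a2) was at 979 CPM in NCKO and 635 CPM in F/F, and cluster 33 at 499 and 882 CPM.

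Slit3, on chromosome 11 from 35121224 to 35708507 (plus strand, ENSMUSG00000056427), was concentrated in hippocampal neuron-like nuclei, with 2009 CPM (1923 to 2098) in NCKO and 2227 CPM (2114 to 2345) in F/F. The next class, striatal or LGE-derived neuron-like, was at 211 CPM in NCKO and 305 CPM in F/F. The hippocampal class held 2.45% of all UMIs in NCKO and 2.41% in F/F, and 17.7% and 25.03% of the Slit3 UMIs. At 1000 UMIs per nucleus, 66.2% of its NCKO and 65.0% of its F/F nuclei held a Slit3 UMI, against 2.33% of NCKO and 0 of 22 F/F microglia-like nuclei. Slit3 was left out of the clustering, but it stood among the 10 leading genes of this cluster, next to Nr3c2, Nrp2 and Zbtb20. Cortical layers were low: layer 6 neuron-like nuclei had 22.8 CPM in NCKO and 21.7 CPM in F/F.

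Much of the Slit3 lay outside the named classes, in part in the clusters that were also high for Slit2. Clusters 32, 36 (4930555F03Rik and C130073E24Rik), 3 (Tafa1 and Grik1) and 34 lay between 805 and 1400 CPM in NCKO and between 842.5 and 1579 CPM in F/F. Cluster 35, led by 6530403H02Rik and Tafa1, was at 1326 CPM in NCKO and 666 CPM in F/F, a ratio of 1.99 (1.67 to 2.40) from 99 and 29 nuclei. Cluster 32 had 190 NCKO and 26 F/F nuclei and cluster 34 had 111 and 22. Over all kept nuclei Slit3 was at 278 CPM in NCKO and 215 CPM in F/F, a ratio of 1.29 (1.25 to 1.34), and how far the different numbers of nuclei per cluster carry that ratio was not tested.

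**Figure D1:**
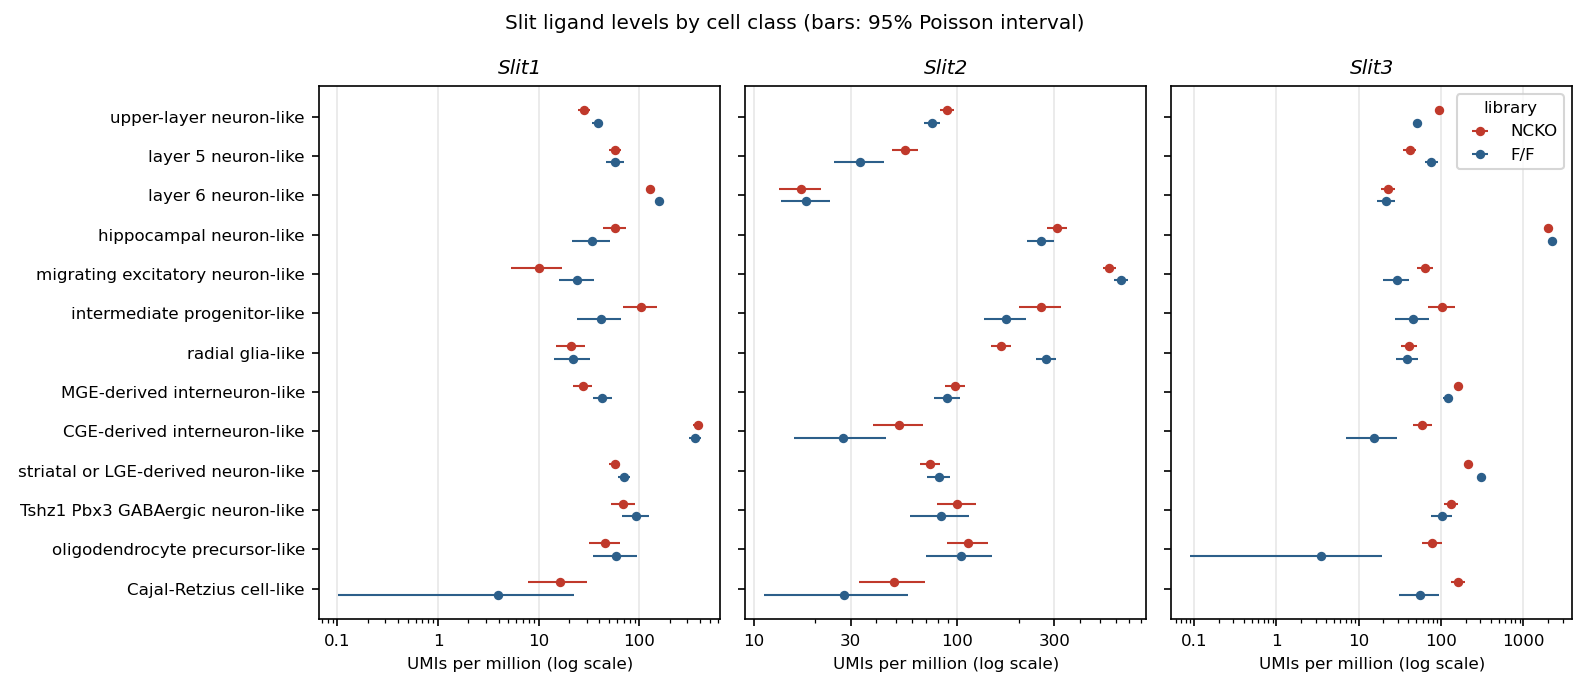
Levels of Slit1, Slit2 and Slit3 in CPM (log axis) in the 12 classes with at least 50 nuclei per library and in Cajal-Retzius cell-like nuclei (116 NCKO, 37 F/F). Points are the NCKO (red) and F/F (blue) libraries and bars are exact 95% Poisson intervals. Among these classes Slit1 peaked in CGE-derived interneuron-like, Slit2 in migrating excitatory neuron-like and Slit3 in hippocampal neuron-like nuclei in both libraries.

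**Figure D2:**
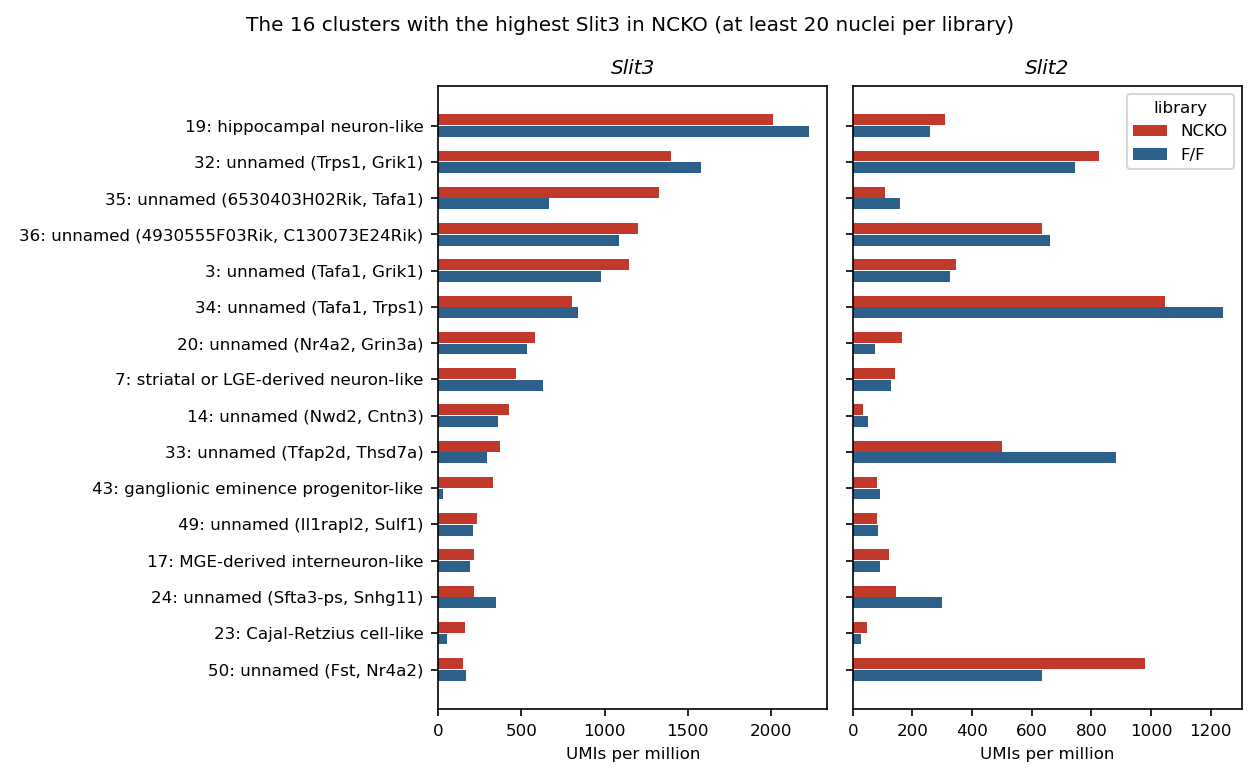
Slit3 (left) and Slit2 (right) in CPM in the 16 clusters with the highest Slit3 in NCKO and at least 20 nuclei per library, NCKO in red above F/F in blue. Unnamed clusters carry their 2 leading genes. Of the unnamed clusters, 32, 34 and 36 had both genes at 635 CPM or more in both libraries, while hippocampal neuron-like cluster 19 had the highest Slit3 with Slit2 at 310 CPM in NCKO and 258 CPM in F/F.

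The receptors were spread more widely than the ligands. Robo1, on chromosome 16 from 72308306 to 73046095 (plus strand, ENSMUSG00000022883), was highest of the 12 classes in layer 5 neuron-like, striatal or LGE-derived neuron-like and hippocampal neuron-like nuclei. Layer 5 neuron-like nuclei, the subcortically projecting neurons, had 4087 CPM (4019 to 4156) in NCKO and 3866 CPM (3769 to 3965) in F/F. The striatal class had 3287 CPM in NCKO and 3723 CPM in F/F, and the hippocampal class 2654 CPM (2555 to 2756) in NCKO and 3882 CPM (3731 to 4036) in F/F. In NCKO these 3 classes were apart from each other, while in F/F hippocampal and layer 5 overlapped, as did layer 5 and striatal. Some single clusters were above these classes in F/F. They were migrating cluster 39 (3008 CPM in NCKO, 6899 in F/F), unnamed clusters 34 (2771 and 5404) and 33 (1691 and 4789), and layer 6 cluster 47 (4152 and 4401). Layer 6 cluster 1 was at 740 CPM in NCKO and 726 CPM in F/F. Radial glia-like nuclei were lowest of the 12, at 401 CPM in NCKO and 308 CPM in F/F. That is below the microglia-like level, and the thinned shares of 21.1% in NCKO and 16.7% in F/F were close to the microglia-like 18.6% and 13.6%. Mural cell-like nuclei, 32 in NCKO and 18 in F/F, had 644 and 355 CPM. How much of the Robo1 in radial glia-like nuclei is free RNA was not tested. MGE-derived interneuron-like nuclei, from the medial ganglionic eminence, were also under the microglia-like level, at 578 CPM in NCKO and 841 CPM in F/F.

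Robo2, on the same chromosome from 73891839 to 74411825 (minus strand, ENSMUSG00000052516), had another order. Migrating excitatory neuron-like nuclei led with 6560 CPM (6421 to 6700) in NCKO and 5362 CPM (5224 to 5502) in F/F. Striatal or LGE-derived neuron-like nuclei followed with 4010 CPM in NCKO and 4513 CPM in F/F. In Cajal-Retzius cell-like nuclei, early neurons that secrete Reelin, the level was 3962 CPM in NCKO and 4617 CPM in F/F from 116 and 37 nuclei. Taken as whole classes, upper-layer and layer 5 neuron-like nuclei were below the migrating ones. Upper-layer nuclei had 1963 CPM in NCKO and 2573 CPM in F/F, and layer 5 nuclei 1810 and 2020 CPM. The upper-layer clusters were uneven, and cluster 30, at 8058 CPM in NCKO and 5980 CPM in F/F, lay above the migrating class. Clusters 31 (5598 and 4397 CPM) and 29 (3959 and 3479 CPM) came between. Clusters 0, 6 and 15 lay between 1342 and 1822 CPM in NCKO and between 1454 and 2310 CPM in F/F. Hippocampal neuron-like nuclei, where Robo1 was high, were the lowest of the 12 for Robo2 at 528 CPM (484 to 574) in NCKO and 476 CPM (424 to 532) in F/F. Oligodendrocyte precursor-like nuclei (737 CPM in NCKO and 508 CPM in F/F) and radial glia-like nuclei (914 and 705 CPM) were also no higher than the microglia-like 953 and 995 CPM.

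**Figure D3:**
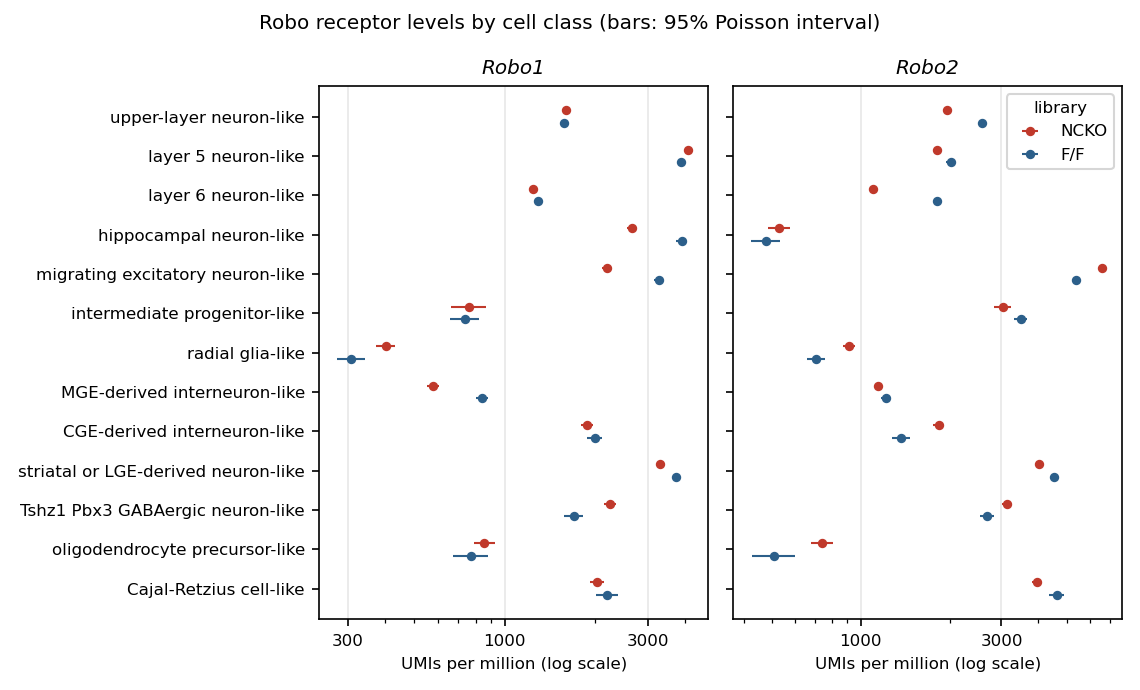
Robo1 and Robo2 in CPM (log axis) in the 12 classes and in Cajal-Retzius cell-like nuclei, NCKO in red and F/F in blue, with exact 95% Poisson intervals. Hippocampal neuron-like nuclei were among the highest of the 12 for Robo1 (2654 CPM in NCKO, 3882 CPM in F/F) and the lowest of the 12 for Robo2 (528 and 476 CPM).

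The pairing of both receptors within single nuclei followed these levels. With nuclei thinned to 1000 UMIs, 77.5% of NCKO and 83.1% of F/F striatal or LGE-derived neuron-like nuclei held UMIs of both Robo1 and Robo2. The share was 65.4% in NCKO and 66.8% in F/F layer 5 neuron-like nuclei, and 65.3% and 76.7% in migrating excitatory neuron-like nuclei. Hippocampal neuron-like nuclei held Robo1 alone in 51.0% of NCKO and 67.5% of F/F nuclei, and Robo2 alone in 4.29% and 0.813%. Intermediate progenitor-like nuclei, the dividing precursors of neurons, went the other way, with Robo2 alone in 48.9% of NCKO and 56.7% of F/F nuclei and Robo1 alone in 5.32% and 2.67%. A UMI missing at this depth does not show that the receptor is lacking.

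**Figure D4:**
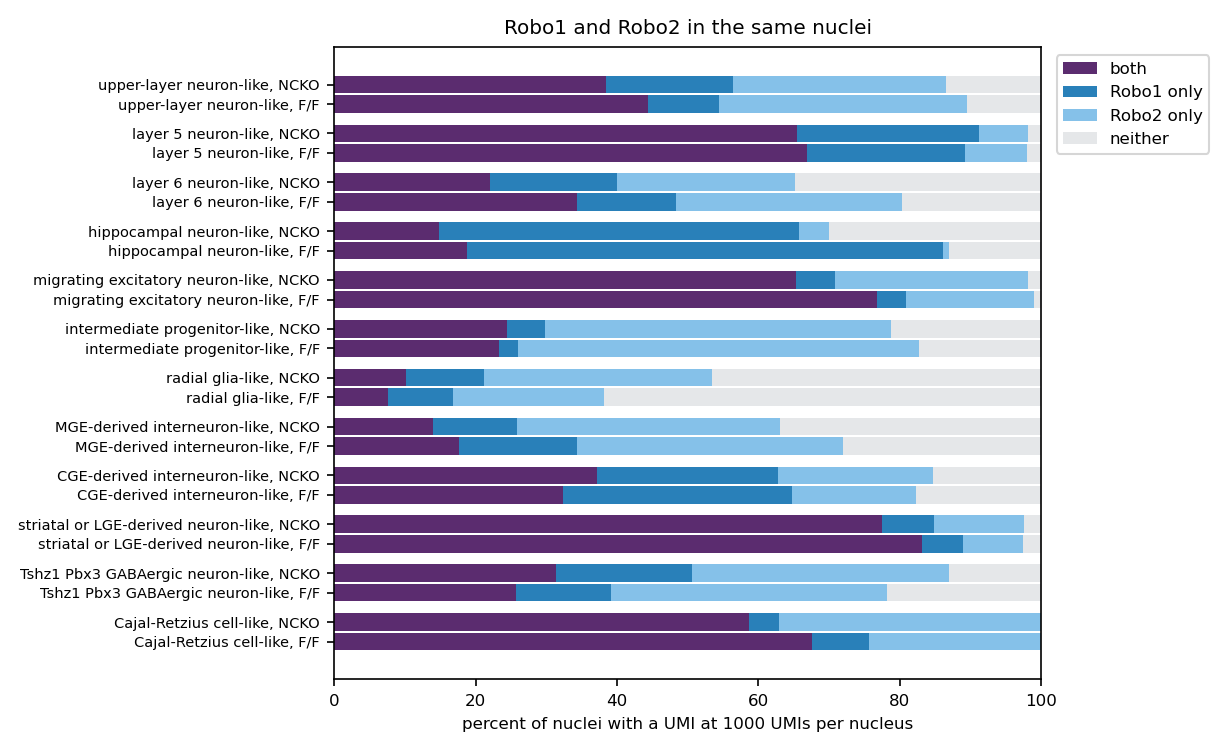
Percent of nuclei with a UMI of both Robo1 and Robo2, of Robo1 only, of Robo2 only or of neither after thinning to 1000 UMIs per nucleus, NCKO above F/F in each class. Striatal or LGE-derived nuclei held both most often (77.5% in NCKO, 83.1% in F/F), and hippocampal neuron-like nuclei mostly held Robo1 only (51.0% and 67.5%).

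Ligand and receptor UMIs also occurred in the same droplets. These shares may include free RNA, which was not tested. A Robo1 or Robo2 UMI was found in 13.6% to 22.7% of microglia-like nuclei at 1000 UMIs. The joint share in microglia-like nuclei can be no higher than their Slit shares. Those were 4.65% for Slit1, 4.65% for Slit2 and 2.33% for Slit3 in NCKO and 0 of 22 nuclei for each in F/F. In migrating excitatory neuron-like nuclei, the highest of the 12 classes for both Slit2 and Robo2, 26.4% of NCKO and 25.8% of F/F nuclei held UMIs of both at 1000 UMIs. In the hippocampal class 38.6% of NCKO and 55.3% of F/F nuclei held Slit3 together with Robo1. CGE-derived interneuron-like nuclei held Slit1 together with Robo1 in 20.8% of NCKO and 18.6% of F/F nuclei. As with levels, shares of different genes are not compared. At 1000 UMIs 91.3% of NCKO and 89.3% of F/F layer 5 neuron-like nuclei held Robo1. Their ligand shares were 4.56% in NCKO and 7.32% in F/F for Slit1, 3.80% and 4.39% for Slit2, and 2.28% and 6.34% for Slit3. Layer 6 neuron-like nuclei held Slit1 in 11.3% of NCKO and 13.1% of F/F nuclei at that depth, Slit2 in 1.26% and 0.519%, and Slit3 in 1.58% and 0.692%.

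Meningeal fibroblast-like nuclei, from the covering of the cortex, were few (43 in NCKO, 16 in F/F) and had Slit2 at 406 CPM (319 to 509) in NCKO and 344 CPM (213 to 526) in F/F. Their Slit3 was at 450 CPM (358 to 558) in NCKO and 262 CPM (150 to 426) in F/F, and their Robo1 at 2780 and 3412 CPM. In CPM both Slits were thus above the microglia-like intervals in NCKO and F/F. Those intervals reached at most 112 CPM for Slit2 and 81.5 CPM for Slit3. The F/F UMIs of each Slit came from only 4 of the 16 nuclei. At equal depth 18.6% of NCKO and 6.25% of F/F nuclei held a Slit2 UMI, and 16.3% and 18.75% a Slit3 UMI. Each of these shares had an interval that overlapped the microglia-like one, so the shares do not separate the classes.

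Robo3, on chromosome 9 from 37415669 to 37433246 (minus strand, ENSMUSG00000032128), was barely detected, with 71 UMIs in NCKO and 47 in F/F over all kept nuclei, or 1.72 and 1.75 CPM. Layer 5 neuron-like nuclei held 23 of the 71 NCKO and 14 of the 47 F/F UMIs, which is 32.4% and 29.8% of them beside 8.15% and 5.80% of all UMIs. Unnamed clusters held 31 NCKO and 15 F/F UMIs, or 43.7% and 31.9%, among them 18 and 6 in cluster 10 (led by Nts and Cdh18), at 7.20 CPM in NCKO and 4.69 CPM in F/F, and 2 and 5 in cluster 40 (Nwd2 and Gm36251), at 3.75 and 9.31 CPM. The layer 5 level was 6.83 CPM (4.33 to 10.3) in NCKO and 8.99 CPM (4.92 to 15.1) in F/F. Migrating excitatory neuron-like, radial glia-like and MGE-derived interneuron-like nuclei had 0 UMIs in both libraries, which allows up to 2.31, 1.64 and 0.986 CPM in NCKO and 2.80, 2.64 and 1.49 CPM in F/F, counting 3 UMIs as the floor.

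The srGAP genes varied less between classes. Srgap1, whose product is known to inactivate Cdc42 downstream of Robo1, was highest of the 12 classes in striatal or LGE-derived neuron-like nuclei, at 811 CPM (784 to 839) in NCKO and 790 CPM (759 to 823) in F/F. It was lowest of the 12 in intermediate progenitor-like nuclei at 150 CPM in NCKO and 105 CPM in F/F, and radial glia-like nuclei were close to that at 151 and 136 CPM. Outside the 12, endothelial cell-like nuclei had 886 CPM (143 UMIs) in NCKO and 598 CPM (5 UMIs) in F/F, and microglia-like nuclei 60.1 and 58.5 CPM. Srgap2, known for slowing neuronal migration and for spine maturation, ranged 1.86-fold in NCKO and 2.44-fold in F/F across the 12 classes. Microglia-like nuclei had more of it than any of the 12, at 1373 CPM (1169 to 1603) in NCKO and 1507 CPM (1230 to 1828) in F/F. Srgap3, also called WRP and known for acting on Rac1, ranged 1.91-fold in NCKO and 1.83-fold in F/F, while Cajal-Retzius cell-like nuclei, outside the 12, had 1189 CPM (1105 to 1279) in NCKO and 1329 CPM (1190 to 1480) in F/F. Across the 12 classes the log2 levels of Srgap1 and Robo1 had a Pearson correlation of 0.78 in NCKO and 0.76 in F/F, higher than for any other pair among the 8 genes without Robo3, as a description over classes that share libraries and depth.

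Between the libraries, most of the genes differed by less than 1.5-fold within a class, and the Slits made up most of the exceptions. Of the 10 classes that reached 100 nuclei in both libraries, 79 of 90 gene and class pairs had at least 50 UMIs and were compared as log2 of CPM + 5 in NCKO over CPM + 5 in F/F. A pair was called at 1.5-fold or more. Of the 79 pairs 6 were higher in NCKO, which is 7.59% beside 4.27% of all gene and class pairs tested, and 3 were lower, which is 3.80% beside 3.36%. Slits accounted for 8 of the 9 calls although they made up 29 of the 79 pairs, Robo2 for 1, and srGAPs for 0 of 30. The called Slit pairs held between 9 and 727 UMIs per library, while Robo1 and Robo2 pairs held between 308 and 17911. The 11 pairs under the minimum were Robo3 in all 10 classes and Slit1 in migrating excitatory neuron-like nuclei (13 UMIs in NCKO, 26 in F/F). The striatal or LGE-derived class had 0 calls among the 9 genes, where 2.44% of genes were higher and 1.91% lower. MGE-derived interneuron-like nuclei had 0 (3.56% of genes higher, 3.08% lower), and Tshz1 Pbx3 GABAergic neuron-like nuclei had 0 (7.86% higher, 4.9% lower). Over all kept nuclei 0 of the 9 genes passed 1.5-fold, where 0.42% of genes were higher and 0.763% lower.

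**Figure D5:**
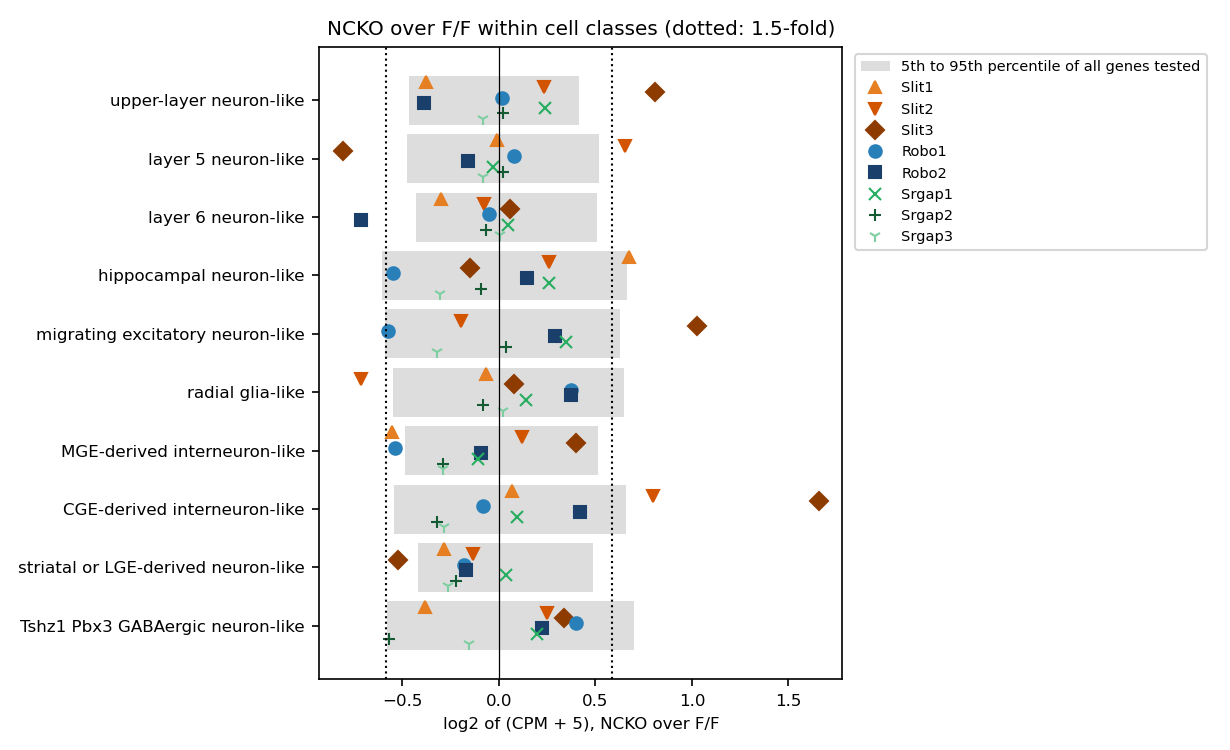
Log2 ratio of CPM + 5, NCKO over F/F, of 8 of the 9 genes in the 10 classes compared (Robo3 had too few UMIs). Grey bands span the 5th to the 95th percentile of all genes tested in the class, and dotted lines mark 1.5-fold. Slit symbols (orange to brown) hold 8 of the 9 points beyond the dotted lines, and Robo2 in layer 6 neuron-like nuclei is the other.

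Slit3 differed most often. In upper-layer neuron-like nuclei, the late-born callosal and intracortical neurons, it was at 93.7 CPM (87.0 to 101) in NCKO and 51.4 CPM (46.3 to 57.1) in F/F, from 727 and 358 UMIs. The log2 ratio was 0.81 and the ratio 1.82 (1.603 to 2.07), in a class where 1.6% of genes were called higher and 2.87% lower. At equal depth 6.62% (5.49 to 7.89) of NCKO and 3.40% (2.55 to 4.44) of F/F nuclei held a Slit3 UMI. The F/F level lay within the interval of the microglia-like nuclei, which reached 81.5 CPM, and the NCKO level lay above theirs, which reached 62.0 CPM. Of the 6 clusters of the class, 5 had the higher level in NCKO: clusters 0 (119 CPM in NCKO, 73.9 in F/F), 6 (51.7 and 13.8), 15 (136 and 99.5), 29 (43.4 and 11.0) and 31, whose counts were 3 and 1 UMIs. Cluster 30 was at 12.7 CPM in NCKO and 18.4 CPM in F/F, from 3 and 9 UMIs.

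CGE-derived interneuron-like nuclei had the largest Slit3 ratio, with 60 UMIs and 59.5 CPM (45.4 to 76.7) in NCKO and 9 UMIs and 15.5 CPM (7.08 to 29.4) in F/F. The log2 ratio was 1.66 and the ratio 3.85 (1.90 to 8.82), beside 7.17% of genes called higher and 3.9% lower in that class. Both levels lay within the intervals of microglia-like nuclei, and the shares at equal depth, 2.50% (1.15 to 4.69) in NCKO and 0.980% (0.119 to 3.496) in F/F, overlapped. Migrating excitatory neuron-like nuclei had 63.9 CPM in NCKO and 28.9 CPM in F/F (log2 ratio 1.02, from 83 and 31 UMIs), beside 6.0% of genes called higher and 5.11% lower. These UMIs lay in 26 of 537 NCKO and 11 of 390 F/F nuclei. The shares at equal depth, 2.45% (1.31 to 4.15) in NCKO and 1.81% (0.730 to 3.69) in F/F, overlapped. Cluster 2 held 77 of the 83 NCKO and 28 of the 31 F/F UMIs. With all deposited barcodes kept this ratio turned to -0.57, and at equal depth it was 0.53 and not called. Layer 5 neuron-like nuclei were the exception, with Slit3 at 41.6 CPM (35.0 to 49.0) in NCKO and 76.4 CPM (63.3 to 91.5) in F/F, a log2 ratio of -0.81, beside 2.77% of genes called lower. That direction rested on the clusters: it was 0.77 at a clustering resolution of 0.5 and 0.19 at resolution 2.

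Slit2 was lower in radial glia-like nuclei of NCKO, at 165 CPM (147 to 184) from 301 UMIs, against 273 CPM (244 to 306) from 311 UMIs in F/F. The log2 ratio was -0.71 and the ratio 0.602 (0.512 to 0.708), in a class where 4.21% of genes were called lower and 6.51% higher. Cluster 12, with 378 NCKO and 224 F/F nuclei, was at 195 CPM in NCKO and 377 CPM in F/F, a ratio of 0.518 (0.425 to 0.630). Clusters 16 (103 CPM in NCKO, 121 in F/F) and 22 (69.6 and 112) had ratios below 1 with intervals that pass it, and dividing cluster 45, led by Top2a among others, was at 356 CPM in NCKO and 303 CPM in F/F. The call was lost without doublet removal (-0.49) and with all deposited barcodes (-0.47). At equal depth 11.0% (8.64 to 13.6) of NCKO and 14.9% (11.5 to 18.9) of F/F radial glia-like nuclei held a Slit2 UMI, shares whose intervals overlap, against 4.65% of NCKO and 0 of 22 F/F microglia-like nuclei.

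The other Slit calls rested on few UMIs or on the setting. Slit2 was higher in layer 5 neuron-like nuclei of NCKO, at 55.5 CPM (47.8 to 64.1) against 33.4 CPM (24.9 to 43.8) in F/F, from 187 and 52 UMIs, beside 3.34% of genes called higher. Its log2 ratio of 0.66 turned to -0.12 when every nucleus was thinned to 1000 UMIs, where the median depth of this class was 5711.5 UMIs in NCKO and 7151 in F/F. In CGE-derived interneuron-like nuclei Slit2 had 52 UMIs in NCKO and 16 in F/F, 51.6 and 27.5 CPM (log2 ratio 0.80). Thinning brought this to 0.16, and the call was also lost without doublet removal (0.37) and with all deposited barcodes (0.09). Slit1 in hippocampal neuron-like nuclei had 58 UMIs in NCKO and 22 in F/F, 57.2 and 34.0 CPM (log2 ratio 0.67, beside 7.12% of genes called higher and 5.37% lower), within the microglia-like intervals in both libraries.

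Robo2 in layer 6 neuron-like nuclei was the single receptor call in the 10 named classes compared. It was at 1100 CPM (1069 to 1131) in NCKO and 1806 CPM (1757 to 1856) in F/F, from 4784 and 5165 UMIs, with a log2 ratio of -0.71 and a ratio of 0.609 (0.585 to 0.633). In this class 2.33% of genes were called lower and 3.2% higher. At 1000 UMIs per nucleus 47.3% (44.1 to 50.5) of NCKO and 66.3% (62.2 to 70.1) of F/F nuclei held a Robo2 UMI, against 18.6% and 22.7% of microglia-like nuclei. The clusters of the class differed: cluster 1, with 789 NCKO and 461 F/F nuclei, was at 919 CPM in NCKO and 1773 CPM in F/F (ratio 0.518, 0.495 to 0.543), and cluster 18 at 1690 and 2086 CPM. Cluster 47, with 87 and 41 nuclei, went the other way, at 2158 CPM in NCKO and 1680 CPM in F/F (ratio 1.29, 1.14 to 1.45). Robo1 in the same nuclei was at 1246 CPM in NCKO and 1292 CPM in F/F, a ratio of 0.964 (0.924 to 1.005). Unnamed clusters were not part of the calls, and their receptor ratios went both ways. For Robo1 the ratio was 0.353 (0.318 to 0.392) in cluster 33, 0.513 in cluster 34 and 0.576 in clusters 32 and 36. It was 1.86 in cluster 49, 1.71 in cluster 51 and 1.68 in cluster 20. For Robo2 the ratio was 0.460 in cluster 36 and 1.86 in cluster 34.

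Just inside 1.5-fold lay several Robo1 pairs, all lower in NCKO: migrating excitatory neuron-like (log2 ratio -0.57), hippocampal neuron-like (-0.55) and MGE-derived interneuron-like nuclei (-0.54). In the MGE-derived class the difference sat in cluster 4, at 415 CPM in NCKO and 943 CPM in F/F (ratio 0.440, 0.397 to 0.488), while cluster 17 was at 709 and 699 CPM (1.014, 0.918 to 1.12). Levels of both clusters lay under the microglia-like 755 CPM in NCKO and 1010 CPM in F/F. All 4 clusters of the migrating class had less Robo1 in NCKO, with ratios from 0.436 to 0.804. Robo2 in that class was higher in NCKO, with a ratio of 1.22 (1.18 to 1.26). Upper-layer neuron-like nuclei had a Robo2 ratio of 0.763 (0.747 to 0.780) that was not shared by their clusters, being 0.609 in cluster 6 and 1.35 in cluster 30, which had 70 NCKO and 148 F/F nuclei. Just inside the mark were also Srgap2 in Tshz1 Pbx3 GABAergic neuron-like nuclei (-0.57), Slit1 in MGE-derived interneuron-like (-0.55) and Slit3 in striatal or LGE-derived neuron-like nuclei (-0.52). Other srGAP ratios lay between -0.32 and 0.35.

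In classes too small to be compared, Slit3 again had the widest ratios. Oligodendrocyte precursor-like nuclei, glial precursors with Pdgfra and Sox10 among their leading genes, had 55 UMIs in NCKO and 1 in F/F, a ratio of 22.6 (3.90 to 910). Those UMIs lay in 18 of 207 NCKO and 1 of 96 F/F nuclei. Ganglionic eminence progenitor-like nuclei had 53 UMIs in NCKO and 4 in F/F, a ratio of 12.5 (4.598 to 47.5). Only 8 of 48 NCKO and 1 of 45 F/F nuclei held them, and the interval treats UMIs of the same nucleus as independent. Cajal-Retzius cell-like nuclei had 161 CPM (130 to 196) in NCKO and 55.7 CPM (30.5 to 93.5) in F/F. Shares at equal depth were 1.96% and 0 of 95 for oligodendrocyte precursor-like, 10.6% and 2.27% for ganglionic eminence progenitor-like, and 14.7% and 5.41% for Cajal-Retzius cell-like nuclei, with overlapping intervals in each case.

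Few other genes of the pathway passed 1.5-fold. They were 42 genes in 4 lists: proteins that bind Slits or act as Robo co-receptors, heparan sulfate synthesis (the sugar chains through which Slits bind Robos), Robo trafficking and cleavage, and cytoplasmic effectors. Of 321 gene and class pairs tested 7 were higher in NCKO, which is 2.18% beside 4.27% of all pairs, and 3 were lower, which is 0.935% beside 3.36%. No gene was called in more than 1 class. The list medians lay between -0.27 and 0.24 across the 10 classes, where the medians of all genes lay between 0.01 and 0.06. One of the 3 lower pairs fell in the class of the Robo2 call, and was chosen for mention after its value was seen: Dcc, the netrin receptor that binds Robo proteins, was at 1058 CPM in NCKO and 1605 CPM in F/F layer 6 neuron-like nuclei (log2 ratio -0.60). The higher pairs, also named after their values were seen, included the heparan sulfate genes Ext2 (0.71) and Ndst1 (0.76) in migrating and Hs6st1 (0.88) in radial glia-like nuclei, and the kinase gene Pak1 (0.80) in radial glia-like nuclei.

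The genes whose levels followed each ligand or receptor most closely across the 12 classes were picked in F/F among 10600 genes with at least 200 UMIs there and read again in NCKO. Robo1 was closest to 8030451O07Rik (Pearson correlation 0.91 in NCKO, 0.97 in F/F), Gm56620 (0.92 and 0.93) and Uchl1 (0.89 and 0.89). Robo2 was closest to Herc1 (0.40 in NCKO, 0.87 in F/F), Slc22a14 (-0.11 and 0.85) and Dcun1d4 (0.88 and 0.85). Slit1 followed Rgs8 (0.67 in NCKO, 0.79 in F/F), Dlgap3 (0.66 and 0.76) and Tbxas1 (0.57 and 0.75). Slit2 followed Golgb1 (0.24 in NCKO, 0.91 in F/F), 2900076A07Rik (0.18 and 0.87) and 5031425E22Rik (0.72 and 0.86), and Slit3 followed Gm10754 (0.73 and 0.86), Psmc4 (-0.36 and 0.86) and Ilvbl (0.53 and 0.84). The Robo1 genes thus held in NCKO, and the first genes of Slit2 and Robo2 did not, although the choice was made in F/F and favours the values there.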

How the data were processed

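Nuclei were profiled with droplet 3′ single-nucleus RNA sequencing. The deposited matrices are UMI counts for each gene in each barcode, and per the file headers Cell Ranger 6.1.0 wrote them. The submitters' processing notes also name mm10 and Seurat, and the sources used here leave unstated whether intronic reads or strand were used. Barcodes with under 500 genes or over 5% mitochondrial UMIs (19 NCKO, 11 F/F) and simulated-doublet neighbours (924 and 336, at 0.8% per 1000 barcodes) were left out, and 15 barcode sequences occurred in both libraries.

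Log counts scaled to 10000 of 2000 variable genes gave 30 components, 20 neighbours and Leiden clusters at resolution 1 (Python 3.11.15, scikit-learn 1.9.0, leidenalg 0.10.2). Clusters were named from marker lists when at least 3 markers were raised, and the naming rule was settled after clusters were seen. Levels are summed counts with exact 95% Poisson intervals, shares have exact Clopper-Pearson intervals, and ratios have exact conditional binomial intervals. PCR copies are collapsed by UMIs, and all intervals cover counting error only. Level and ratio intervals treat UMIs of the same nucleus as independent. Calls used log2 of CPM + 5, 1.5-fold and at least 50 UMIs, and the calculation was tested on simulated data. Thinning drew 1000 UMIs per nucleus, leaving out 67 NCKO and 33 F/F shallower nuclei.

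The genes, pathway lists and markers were chosen with earlier results of these data known. Named are the 9 genes, pathway genes called in at least 2 classes (0), and the 3 genes with the highest correlation for each Slit and for Robo1 and Robo2. A few pathway genes called in 1 class and clusters within classes were named outside this rule, after their values were seen. Positions are from GENCODE vM21 (GRCm38). A few annotated genes lie inside the members and drew UMIs of their own, among them Gm12122 in Slit3 (116), 4930518C09Rik antisense in Slit2 (58), Gm29488 in Srgap2 (313) and Gm44081 antisense in Srgap3 (28), so counts of those hosts may be split.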

Additional observations from a re-analysis of the deposited data

Results flagged for a closer look

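Slit2 was higher in NCKO than in F/F in CGE-derived interneuron-like nuclei (log2 ratio 0.80, 52 and 16 UMIs) and lower in radial glia-like nuclei (-0.71, 301 and 311 UMIs), which differ by 1.51 on the log2 scale. Slit3 was higher in CGE-derived interneuron-like nuclei (1.66, 60 and 9 UMIs) and lower in layer 5 neuron-like nuclei (-0.81, 140 and 119 UMIs), which differ by 2.46. Both stand out because a single gene went in opposite directions in a pair of classes. The direction of Slit3 in layer 5 depends on the setting, and turned to 0.77 at clustering resolution 0.5 and 0.19 at resolution 2. Slit2 in CGE-derived nuclei kept its direction but came to 0.09 with all deposited barcodes and 0.16 after thinning to 1000 UMIs. The Slit3 levels of both classes lay within the microglia-like intervals, which reached 62.0 CPM in NCKO and 81.5 CPM in F/F. With 1 library per label neither difference was tested.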

How the results depend on the processing

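The 14 alternative settings left some of the 9 calls standing in all of them: Robo2 in layer 6 neuron-like nuclei (log2 ratio -0.93 to -0.63), Slit3 in upper-layer neuron-like nuclei (0.67 to 1.11) and Slit3 in CGE-derived interneuron-like nuclei (1.17 to 2.22 in the 13 settings that gave a value). Slit2 in radial glia-like nuclei was called in 12 of 14, Slit2 in CGE-derived nuclei in 10 of 13, Slit1 in hippocampal nuclei in 9 of 11, Slit3 in layer 5 in 9 of 14, Slit2 in layer 5 in 8 of 14 and Slit3 in migrating nuclei in 6 of 9. Directions turned for Slit2 in layer 5 after thinning (-0.12), for Slit3 in layer 5 at resolution 0.5 (0.77) and 2 (0.19), and for Slit3 in migrating nuclei with all deposited barcodes (-0.57). The 6 higher pairs became 2 at 200 UMIs or more, where fewer pairs enter, and 3 with clusters from F/F alone. The 3 lower pairs became 6 at resolution 0.5, 8 after thinning, and 5 each with clusters from F/F alone, with the mean of each nucleus' own CPM and with clusters weighted as in F/F. A similar count could hold other pairs. Without doublet removal 2 of 4 higher and 1 of 3 lower pairs were among the 9 calls. After thinning these were 3 of 7 and 3 of 8, and with all deposited barcodes 3 of 4 and 1 of 2. With barcodes found in both libraries left out, all 6 and all 3 stayed. The cause was not tested. No paired analysis was possible because there is 1 library per label. Depth limits Robo3, with 71 UMIs in NCKO and 47 in F/F, and the Slits in classes with few nuclei.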
